A study of Mus musculus with 2 samples.

Results

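The genes described here were 37 mouse genes of the cellular response to oxygen: the subunits of hypoxia-inducible factor (HIF), the enzymes that mark HIF for destruction, the enzymes and transporters of glycolysis, and other genes that HIF is known to induce. They were listed by name and not by a rule on measured values, though with earlier results of these data known. All 37 were present among the 27998 genes of both count tables. By role they were 4 HIF subunits, 4 genes of oxygen sensing and HIF degradation, 2 glucose transporters, 12 glycolytic enzymes, 2 genes that set the fate of pyruvate, 2 regulators of phosphofructokinase, 2 mitophagy genes and 9 other HIF targets. The glucose transporters, the glycolytic enzymes and the genes of pyruvate fate are together called the 16 glycolytic genes below.

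Single-cell RNA-seq was performed on lungs of C57BL/6 mice at 2 weeks of age. The Room Air group breathed 21% oxygen and the Hyperoxia group 80% oxygen, in both cases from postnatal day 0 to day 14, as a model of the arrested alveolar growth of preterm infants. Lungs of 8 mice were mixed into 1 library per group, so that the spread between mice was not measured and no test between the groups could be made. The comparison asked whether high oxygen went with lower levels of oxygen-regulated genes, and in which cells.

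HIF is a transcription factor made of an oxygen-regulated alpha subunit (HIF-1α from Hif1a, HIF-2α from Epas1, HIF-3α from Hif3a) and a constant beta subunit from Arnt. In the presence of oxygen, prolyl hydroxylases (Egln1, Egln2, Egln3) modify the alpha subunit, the von Hippel-Lindau protein (Vhl) binds it, and it is degraded. This control acts on the protein, so the messenger RNA of an alpha subunit is not a measure of HIF activity, whereas the messenger RNAs of target genes lie downstream of it. Glycolysis turns glucose into pyruvate. Lactate dehydrogenase converts pyruvate to lactate, and pyruvate dehydrogenase kinase inhibits pyruvate dehydrogenase, the enzyme that uses pyruvate in mitochondria.

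HIF binds the letters RCGTG, read as ACGTG or GCGTG, on either strand of DNA. The 250 bases before the start site are shown for 5 genes: the 3 whose level over all cells was at least 1.5-fold higher in hyperoxia (Ankrd37, P4ha2 and Adm) and 2 glycolytic genes known as HIF targets (Ldha and Pgk1). The sequences are those of RefSeq on GRCm38.p6, written from far to near along the strand of the gene, and capitals mark ACGTG or GCGTG read on either strand (CACGT or CACGC where the match lies on the other strand). In the run CACGTG the 2 readings overlap.
Ankrd37, chr8:45999851-46000100, minus strand: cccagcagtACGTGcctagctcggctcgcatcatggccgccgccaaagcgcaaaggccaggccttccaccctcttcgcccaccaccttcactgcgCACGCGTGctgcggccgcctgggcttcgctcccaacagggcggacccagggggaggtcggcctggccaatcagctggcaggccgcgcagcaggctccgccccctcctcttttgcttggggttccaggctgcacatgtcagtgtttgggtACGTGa
P4ha2, chr11:54100674-54100923, plus strand: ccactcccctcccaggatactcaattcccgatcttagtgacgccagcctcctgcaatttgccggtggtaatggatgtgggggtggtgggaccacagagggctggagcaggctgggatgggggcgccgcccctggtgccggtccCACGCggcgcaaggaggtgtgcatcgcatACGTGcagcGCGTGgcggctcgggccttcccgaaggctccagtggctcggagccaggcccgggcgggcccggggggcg
Adm, chr7:110627407-110627656, plus strand: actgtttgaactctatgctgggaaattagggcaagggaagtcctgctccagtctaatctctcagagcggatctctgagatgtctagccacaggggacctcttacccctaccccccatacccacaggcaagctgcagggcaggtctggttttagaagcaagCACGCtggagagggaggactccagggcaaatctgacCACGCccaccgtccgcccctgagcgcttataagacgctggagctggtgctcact
Ldha, chr7:46845554-46845803, plus strand: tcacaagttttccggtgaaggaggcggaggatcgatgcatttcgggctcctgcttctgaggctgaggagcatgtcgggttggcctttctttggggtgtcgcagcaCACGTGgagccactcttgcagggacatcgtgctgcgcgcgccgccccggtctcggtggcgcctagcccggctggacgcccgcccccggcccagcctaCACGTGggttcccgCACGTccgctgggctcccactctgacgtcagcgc
Pgk1, chrX:106186850-106187099, plus strand: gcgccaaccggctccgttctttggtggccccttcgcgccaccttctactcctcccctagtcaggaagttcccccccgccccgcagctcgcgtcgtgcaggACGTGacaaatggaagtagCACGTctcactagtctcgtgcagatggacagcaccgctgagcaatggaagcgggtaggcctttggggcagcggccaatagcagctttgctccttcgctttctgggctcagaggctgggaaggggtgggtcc
Counted on either strand, the window held 4 matches for Ankrd37, 3 for P4ha2, 2 for Adm, 5 for Ldha and 2 for Pgk1, and the match nearest to the start lay 6, 69, 54, 34 and 131 bases before it, respectively. Ldha had 2 windows, of which the one with more matches is shown, and its other window held 1 match. Of the 37 genes, 31 had such a window in the RefSeq table, and 28 of the 31 (90.3%) held either motif in at least 1 window. The share over all 27025 genes with a window was 41.5%. For ACGTG alone the shares of genes were 54.8% and 18.5%. A gene with several windows has more places for a match. Per window, either motif was held by 77.8% of the 45 windows of the 31 genes and 38.6% of all 32851. The windows of the 31 genes also had more G and C bases (median 62%) than those of all genes (median 52.4%), and the part of base composition in the higher share was not tested. Vhl, Gpi1 and Tpi1 held neither motif in any window. A match is a description of the letters and not a binding site. Epas1, Slc2a3, Bnip3l, Ndrg1, Bhlhe40 and Ndufa4l2 had no entry.

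The Room Air library held 4234 cell barcodes and 39593888 UMIs (unique molecular identifiers, each standing for 1 captured RNA molecule), and the Hyperoxia library 13223 barcodes and 111934936 UMIs. After filters, 3680 and 10473 cells were kept, with a median of 8070.5 and 7208 UMIs per cell. The libraries shared 17 cell barcodes, and 15 of these cells in room air and 14 in hyperoxia were kept. Cells were grouped into 5 lineages and 17 cell types from marker genes, and each type is called "-like" because the names were rebuilt from clusters. For gCap-, alveolar fibroblast- and myofibroblast-like cells, between 96.2% and 98.2% of each library's cells lay in clusters that came to at least 90% from that library. The share was 97% of hyperoxia AT2-like cells and none of those of room air, 83.2% of pericyte-like cells in both libraries, 78% and 94.4% of alveolar macrophage-like cells, and 46.9% and 66.7% of aCap-like cells, in room air and hyperoxia respectively. Values of these 7 types therefore compare cells that fell partly or wholly into different clusters.

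Levels are given as CPM, the UMIs of a gene per 1000000 UMIs summed over the cells described. Intervals are exact 95% Poisson intervals of a level, or exact conditional intervals of a ratio, and cover counting error only. Ratios are hyperoxia over room air, and they are read for genes with a mean of at least 10 CPM over both libraries. A gene is called higher or lower when its level differed at least 1.5-fold. The values describe these 2 libraries, not the conditions.

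Over all cells, glycolysis differed little between the libraries, and the differences lay among other HIF targets, in both directions. Ankrd37, which encodes an ankyrin-repeat protein induced by HIF, had 12.6 CPM in room air against 27 CPM in hyperoxia, a ratio of 2.14 (1.94 to 2.37). Adm, the vasodilator peptide adrenomedullin, had 21.2 and 33.9 CPM, and P4ha2, a collagen prolyl hydroxylase subunit, 12.8 and 19.3 CPM. Ndufa4l2, a mitochondrial protein that lowers respiration, went the other way, with 59.4 CPM in room air against 32.8 CPM in hyperoxia and a ratio of 0.552 (0.522 to 0.584).

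Of the 37 genes, 35 passed the minimum over all cells, 3 were higher and 1 was lower. Those 4 were 11.4% of the 35 genes, beside 8.32% of all 9350 genes that passed, of which 3.6% were higher and 4.72% lower. The ratio was over 1 for 22 genes and under 1 for 13, and the median log2 ratio was 0.05, beside 0.01 over all genes. None of the 16 glycolytic genes differed 1.5-fold in all cells: 10 had a ratio over 1 and 6 under 1, with a median log2 ratio of 0.03. Their summed level was 1916 CPM in room air against 1933 CPM in hyperoxia. Hif3a and Egln3 were below the minimum.

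**Figure D1:**
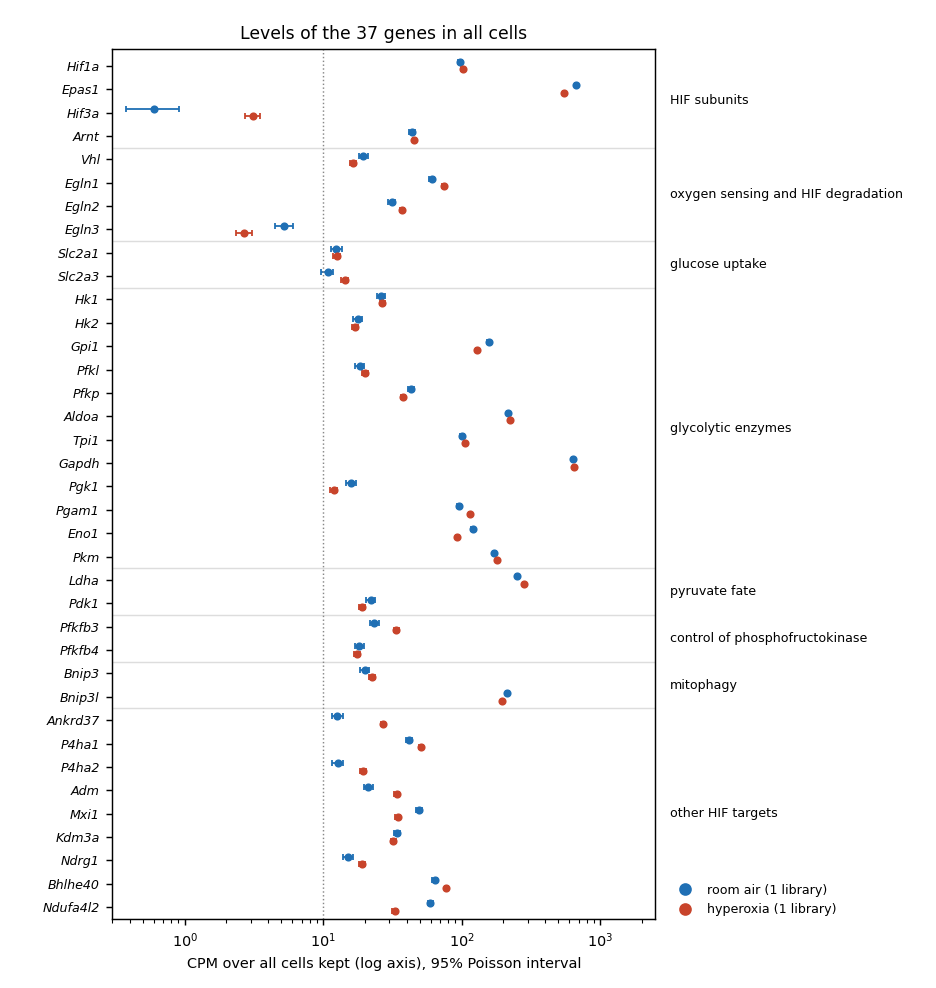
Level of each of the 37 genes over all cells kept, by role, in CPM on a log axis, with 1 point per library (room air blue, hyperoxia red) and exact 95% Poisson intervals; the dotted line marks 10 CPM. Most pairs of points lie close together, and Ankrd37 (12.6 and 27 CPM) and Ndufa4l2 (59.4 and 32.8 CPM) stand furthest apart among the genes to the right of the line.

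A sum over all cells moves with the mixture of cells as well as with the level in each, and the mixture differed. Pericyte-like cells, which held 1823 of the 2165 Ndufa4l2 UMIs in room air and 2363 of 2866 in hyperoxia, were 3.23% of the cells kept in room air and 1.93% in hyperoxia. Alveolar fibroblast-like cells, the highest in Adm, were 4.97% and 10.2%. Each gene was therefore followed within lineages and cell types. Mixtures within lineages differed too. gCap-like cells were 551 of 988 endothelial cells in room air and 776 of 2431 in hyperoxia, and aCap-like cells 226 and 1181. The part of such mixtures in the lineage values was not tested.

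Within lineages, 5 of the 29 genes that passed in endothelial cells were 1.5-fold apart (4 higher and 1 lower), beside 15.8% of all genes in that lineage, 6.53% higher and 9.31% lower, and their median log2 ratio was 0.19, beside 0.01. In epithelial cells 3 of 28 were apart (all genes 16.6%), in stromal cells 4 of 30 (10.4%), in myeloid cells 4 of 31 (13.6%) and in lymphocytes 0 of 30 (5.24%). Here and below, a share in brackets after a count of the genes is that of all genes. The 4 higher endothelial genes were Ankrd37, P4ha2, Bhlhe40 and P4ha1, and the lower one was Pdk1. Of 10 genes of dividing cells 9 passed in endothelial cells and 9 were lower, from a summed 496 to 54.9 CPM, and their part in the endothelial values was not tested. In epithelial cells Hk2 (20.7 and 34.1 CPM) and Pfkp (8.9 and 14 CPM) were higher and Epas1 lower. In that lineage 8 club cell markers summed to 130774 CPM in room air against 1862 CPM in hyperoxia, with 8 of 8 lower, and 11 of 14 genes of the response to tissue dissociation were lower there. Their part in the epithelial values was not tested. Some clusters left without a type name stayed in their lineage. Among them were 26 endothelial cells of room air and 42 of hyperoxia, with Ccl4, Cma1 and Hdc among the leading genes. Others were 18 and 179 epithelial cells, with Aspn, Bgn and Tagln among the leading genes. The part of these clusters in the lineage values was not tested.

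Within cell types the count was 5 of 26 genes in gCap-like cells, the general capillary endothelium (16.6%), 6 of 29 in aCap-like cells, the aerocytes (17.2%), and 14 of 29 in artery-like cells (28.7%). It was 3 of 26 in AT2-like cells (13.6%) and 5 of 27 in AT1-like cells (25.1%). In the stroma it was 2 of 26 in alveolar fibroblast-like (15.5%), 4 of 28 in myofibroblast-like (11.7%), 4 of 30 in smooth muscle-like (20.2%) and 7 of 27 in pericyte-like cells (22.6%). Among myeloid cells it was 7 of 31 in neutrophil-like cells (33.4%), 7 of 28 in alveolar macrophage-like cells (27.3%) and 12 of 29 in interstitial macrophage-like cells (27.6%). It was 4 of 28 in classical monocyte-like (20.2%) and 6 of 30 in nonclassical monocyte-like cells (25.6%), and 3 of 30 in B cell-like (10.5%), 5 of 27 in CD4 T cell-like (18.7%) and 5 of 26 in CD8 T cell-like cells (19.2%). In most types the share of these genes lay near or below that of all genes. It was above it by the widest margins in artery-like and interstitial macrophage-like cells, which had 82 and 51 cells in room air.

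**Figure D2:**
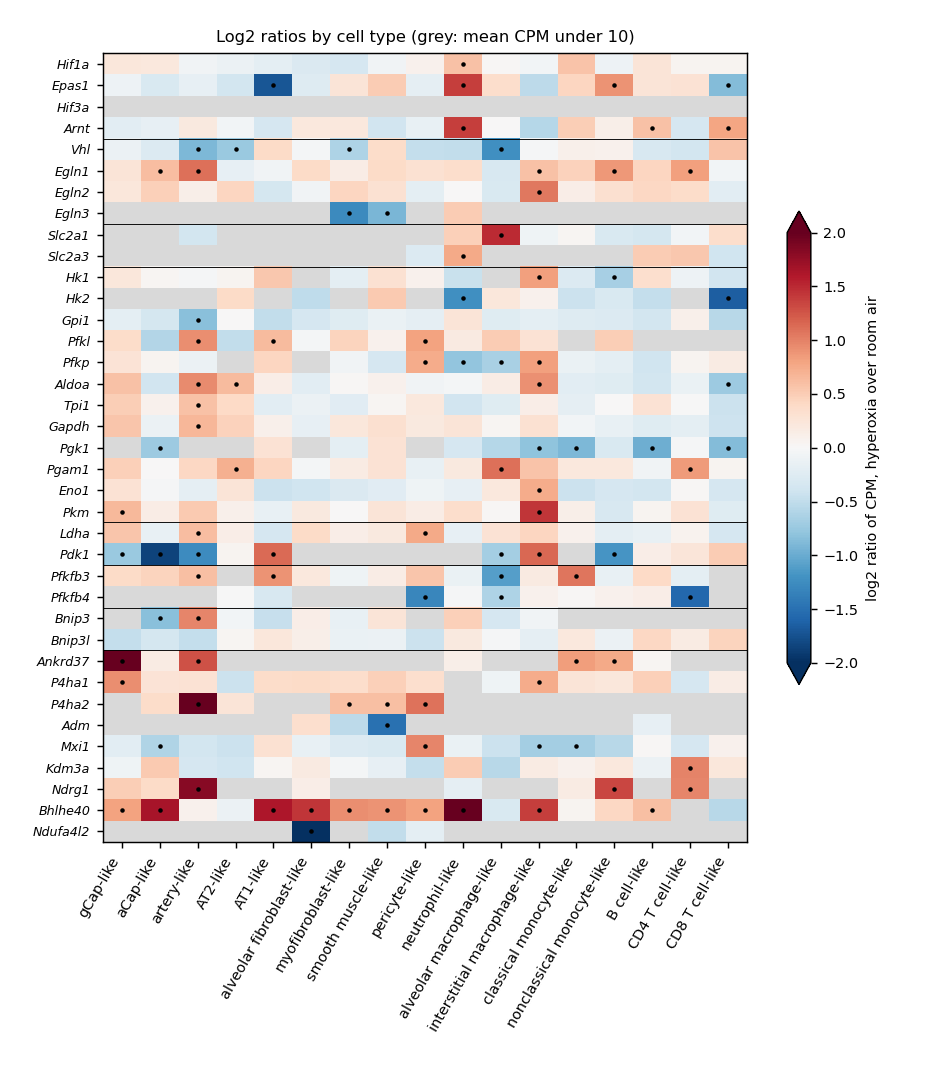
Log2 ratio of CPM, hyperoxia over room air, for the 37 genes (rows, by role) in 17 cell types (columns); red is higher and blue lower in hyperoxia, dots mark at least 1.5-fold, grey cells had a mean under 10 CPM. Bhlhe40 is red with a dot in 10 types, Pdk1 is blue with a dot in the 3 endothelial types, and no type is of 1 color throughout.

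Among the HIF subunits the levels of the 2 main alpha subunits were close in the 2 libraries where they were highest. Epas1 (chr17:86753700-86833410, plus strand, mm10) was highest in endothelium: gCap-like cells had 3012 CPM in room air against 2796 CPM in hyperoxia, aCap-like cells 2252 and 1817 CPM, and artery-like cells 2110 and 1878 CPM. Pericyte-like cells followed with 930 and 817 CPM. In each of these 4 types the level was lower in hyperoxia by less than 1.5-fold, and in the endothelial lineage the ratio was 0.833 (0.819 to 0.846). Hif1a (chr12:73901375-73947530, plus strand) was highest in smooth muscle-like cells, with 226 and 217 CPM, and its intervals there did not overlap those of the next type in room air, CD4 T cell-like cells (126 CPM). Its log2 ratio lay between −0.34 in myofibroblast-like and 0.59 in neutrophil-like cells, the 1 type where it was called (58 and 87.4 CPM, with an interval of the ratio from 0.949 to 2.49). Arnt was detected at 44 and 45.6 CPM over all cells, and was called in 3 types, higher in each: neutrophil-like (15.1 and 39.2 CPM, from 6 and 44 UMIs), B cell-like (32.1 and 48.4 CPM) and CD8 T cell-like cells (16.6 and 28.8 CPM).

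Epas1 was called in types where its level was low. In AT1-like cells it had 106 CPM in room air against 32.5 CPM in hyperoxia (75 and 33 UMIs), a log2 ratio of −1.71. The summed level of 8 endothelial markers in these AT1-like cells moved with it, from 489 to 144 CPM, with 8 of 8 lower and none at 0, and that of 8 AT2 markers was 40743 and 9673 CPM, with 8 of 8 lower. In neutrophil-like cells Epas1 had 20.2 and 52.6 CPM (8 and 59 UMIs), a log2 ratio of 1.38, beside 161 and 311 CPM for the endothelial markers, with 7 of 8 higher and Emcn at 0 in room air. Epas1 was also called lower in CD8 T cell-like cells (47.5 and 26.1 CPM) and higher in nonclassical monocyte-like cells (22.6 and 41.8 CPM, with an interval of the ratio from 0.988 to 3.45). Over the epithelial lineage it had 188 and 117 CPM, a log2 ratio of −0.68 that was 0.12 as a mean of single cells. In AT1-like cells it was 1.41 without doublet removal. The part of other cells' RNA in these values was not tested. Hif3a was close to absent in most types, with 22 UMIs over all cells of room air and 271 of hyperoxia. Alveolar fibroblast-like cells held 172 of those in hyperoxia (13.6 CPM) and 5 of those in room air (1.63 CPM). Smooth muscle-like cells, the highest type in room air, had 7 and 19 UMIs (5.02 and 4.84 CPM). Pericyte-like cells had 1 and 20 UMIs. The mean of both libraries was below the minimum in each type, so these values are given for their counts and no ratio is read.

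Of the genes that sense oxygen and degrade HIF, the hydroxylases Egln1 and Egln2 were on the higher side in most types, and Vhl on the lower side. Egln1, the main HIF prolyl hydroxylase and itself a HIF target, had 61 and 74.1 CPM over all cells, and its ratio was over 1 in 13 of 17 types (13 or 14 under the 3 other scalings) and called higher in 5. It had 43.3 CPM in room air against 92.5 CPM in hyperoxia in artery-like cells, a ratio of 2.14 (1.43 to 3.29), and 54.1 and 82.8 CPM in aCap-like cells, a ratio of 1.53 (1.22 to 1.95). Egln2 was over 1 in 12 of 17 types (11 to 13 under the other scalings), with 31.2 and 37.1 CPM over all cells. Vhl, the substrate receptor of the ligase that destroys HIF alpha, was under 1 in 12 of 17 types (11 or 12 under the other scalings) and called lower in 4. These were AT2-like (23.8 and 14.3 CPM), myofibroblast-like (25.8 and 16.8 CPM), artery-like (23.1 and 12.3 CPM, with an interval of the ratio from 0.257 to 1.12) and alveolar macrophage-like cells (21.5 and 9.17 CPM).

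Egln3, the hydroxylase most strongly induced by HIF in many cells, was measurable mainly in contractile stroma and in neutrophil-like cells. In myofibroblast-like cells it had 19.1 CPM in room air against 7.9 CPM in hyperoxia, a ratio of 0.414 (0.295 to 0.578), and in smooth muscle-like cells 22.9 and 12.2 CPM, a ratio of 0.533 (0.334 to 0.862). In neutrophil-like cells it had 20.2 and 28.5 CPM, within 1.5-fold. The 2 stromal types thus had lower Egln3 in hyperoxia, while Egln1 in the same cells had log2 ratios of 0.15 and 0.38.

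The glucose transporters were mainly those of blood cells. Slc2a3, a high-affinity transporter, was highest in neutrophil-like cells, with 350 CPM in room air against 591 CPM in hyperoxia, a ratio of 1.69 (1.4 to 2.04). Over the myeloid lineage it had 27.5 and 58.6 CPM, beside a share of neutrophil-like cells of 2.85% and 4.42% of all cells kept. Slc2a1, the basal transporter and a classical HIF target, had 12.4 and 12.5 CPM over all cells. It was called in 1 of the 9 types where it passed, alveolar macrophage-like cells, with 9.57 and 26.8 CPM (20 and 155 UMIs) and a ratio of 2.8 (1.75 to 4.71). Over the endothelial, epithelial and stromal lineages neither transporter reached the minimum.

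The 16 glycolytic genes lay on different sides in different cell types, as the 3 endothelial types show. In gCap-like cells 10 of the 12 glycolytic genes that passed had a ratio over 1 and 2 under 1, beside 51.2% of all genes under 1. For 8 of them the interval lay above 1, and the share of all genes with such an interval was not counted. The median log2 ratio was 0.42, beside −0.01 over all genes. In artery-like cells the median of 13 was 0.42, with 7 over 1 (7 or 8 under the other scalings). In aCap-like cells, the capillary cells that exchange gas, the median of 13 was −0.11, with 5 over 1 (4 to 6 under the other scalings). In these cells the haemoglobin gene Hbb-bs had 2345 and 1123 CPM and the median depth was 3657 and 6928 UMIs per cell, and their part was not tested. The difference between these types was not tested. The median in gCap- and artery-like cells was over 0, and that in aCap-like cells under 0, under each of the 3 other scalings.

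In gCap-like cells Pkm, pyruvate kinase, had 141 CPM in room air against 220 CPM in hyperoxia, a ratio of 1.56 (1.42 to 1.71). Gapdh, which oxidizes the 3-carbon sugar phosphate, had 386 and 568 CPM, and Aldoa, the aldolase that makes it, 134 and 200 CPM, log2 ratios of 0.56 and 0.58 that lay just within 1.5-fold. Tpi1 and Pgam1 had log2 ratios of 0.50 and 0.48. Gpi1, the isomerase of the second step, was the enzyme on the lower side, with 180 and 156 CPM. In aCap-like cells Gapdh had 444 and 411 CPM, Pkm 180 and 200 CPM, and Aldoa 216 and 166 CPM. Pgk1, phosphoglycerate kinase, was called lower there, with 12.7 and 7.64 CPM (19 and 65 UMIs) and an interval of the ratio from 0.356 to 1.06.

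**Figure D3:**
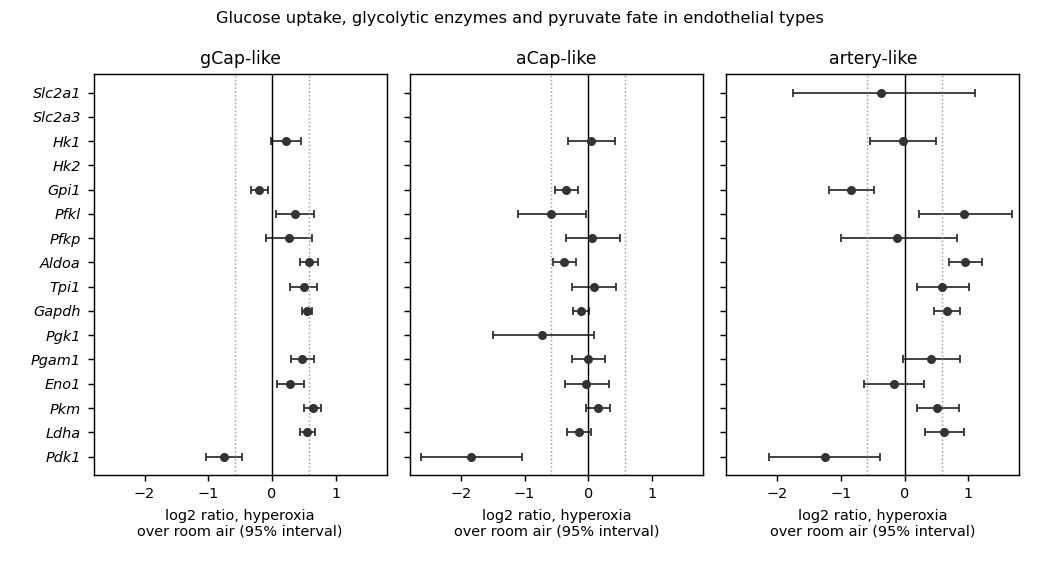
Log2 ratio, hyperoxia over room air, of the 16 glycolytic genes in gCap-, aCap- and artery-like cells, with exact 95% intervals; solid line no difference, dotted lines 1.5-fold, genes under 10 CPM left blank. In gCap-like cells 10 of 12 points lie right of 0, in aCap-like cells 5 of 13, and Pdk1 lies left of 0 in all 3 panels.

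In artery-like cells Aldoa had 213 and 413 CPM, a ratio of 1.94 (1.61 to 2.33), and Pfkl, the liver subunit of phosphofructokinase, 30.3 and 57.5 CPM. Gapdh (360 and 571 CPM), Tpi1 (98.1 and 148 CPM) and Ldha (164 and 253 CPM) were also higher, while Gpi1 was lower, with 183 and 103 CPM. There were 82 such cells in room air and 149 of them in hyperoxia. In them, 8 stromal markers summed to 412 CPM in room air against 1022 CPM in hyperoxia, with 5 of 8 higher and Dcn at 0 in room air. Its part in the values of artery-like cells was not tested.

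Outside the endothelium, AT2-like cells, which make surfactant, had 11 of 12 glycolytic genes over 1 (8 as a mean of single cells) and a median log2 ratio of 0.20. Aldoa was called there with 153 and 237 CPM, a ratio of 1.55 (1.39 to 1.73), and Pgam1, phosphoglycerate mutase, with 33.3 and 54.4 CPM, a ratio of 1.63 (1.3 to 2.07). Alveolar fibroblast-like cells had 2 of 10 over 1 and a median of −0.14, and none was called. In CD8 T cell-like cells 4 of 15 were over 1, with a median of −0.38, and Aldoa (266 and 162 CPM), Pgk1 (38 and 20.8 CPM) and Hk2 (15.4 and 4.92 CPM) were lower. The summed level of 8 epithelial markers in these T cells was 277 and 782 CPM, with 6 of 8 higher and Krt18, Cldn18 and Foxj1 at 0 in room air, and its part was not tested. B cell-like, classical monocyte-like and nonclassical monocyte-like cells had medians of −0.23, −0.18 and −0.28. The median lay on the same side of 0 under each scaling for these 6 types.

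Some enzymes lay on 1 side in most types. Gpi1 was under 1 in 14 of 17 types (13 to 16 under the other scalings), in 10 of them with an interval below 1, yet by less than 1.5-fold in all but artery-like cells. Pgk1 was under 1 in 10 of the 12 types where it passed (9 or 10 under the other scalings), and was called lower in 5, among them classical monocyte-like cells with 41.7 and 22.4 CPM and B cell-like cells with 17.9 and 9.12 CPM. Pgam1 was over 1 in 14 of 17 types (13 or 14 under the other scalings) and Pkm in 14 (12 to 14). Eno1, enolase, was under 1 in 12 of 17 types as reported and in 9 to 13 under the other scalings. Pseudogenes named after Aldoa, Gapdh, Pgk1, Pgam1, Ldha, Vhl and Bnip3l are annotated, and reads that match both cannot be assigned, so the counts of these genes are uncertain to that extent. Pseudogenes under other names were not searched for, so the counts of other genes may be uncertain in the same way.

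Alveolar macrophage-like cells combined both directions. Pgam1 had 140 CPM in room air against 300 CPM in hyperoxia, a ratio of 2.14 (1.89 to 2.43), beside the higher Slc2a1. Pfkp, the platelet subunit of phosphofructokinase, was lower with 68.9 and 43.9 CPM, as were Pdk1 (30.6 and 19 CPM), Pfkfb3 (19.6 and 9.17 CPM) and Pfkfb4 (59.3 and 38.6 CPM). In this type the median log2 ratio of all genes was −0.25 as reported and 0.05 with TMM factors, a scaling that centers the bulk of genes, so that the lower genes lay nearer to all genes than their ratios show. The summed level of 8 interstitial macrophage markers in these cells was 1365 and 506 CPM, with 8 of 8 lower and none at 0, and its part was not tested. Over the myeloid lineage the median of all genes was −0.09 as reported and 0.03 with TMM factors, and that of the 16 glycolytic genes was −0.09 and 0.03.

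In interstitial macrophage-like cells 6 of the 15 glycolytic genes that passed were higher and 1 lower (27.6%). Among the higher were Pkm with 72.6 and 196 CPM (37 and 225 UMIs), a ratio of 2.7 (1.9 to 3.93), and Aldoa with 110 and 206 CPM, a ratio of 1.88 (1.4 to 2.56). Eno1 had 74.6 and 124 CPM, Pfkp 6 and 24 UMIs, Hk1 4 and 16 UMIs and Pdk1 4 and 20 UMIs. Of the 12 genes called in this type, 7 reversed under at least 1 other setting. Pkm, Aldoa, Egln2, P4ha1 and Mxi1 did not.

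At the fate of pyruvate, Ldha and Pdk1 went different ways. Ldha, which makes lactate, had 252 CPM in room air against 282 CPM in hyperoxia over all cells, was over 1 in 11 of 17 types (11 to 13 under the other scalings), and was called higher in pericyte-like cells (109 and 184 CPM) besides artery-like cells. Pericyte-like cells held a summed level of 8 epithelial markers of 2022 CPM in room air against 466 CPM in hyperoxia, with 7 of 8 lower and Cdh1 at 0 in hyperoxia, and its part was not tested.

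Pdk1 (chr2:71873224-71903858, plus strand), the HIF-induced kinase that inhibits pyruvate dehydrogenase, was lower in endothelium in hyperoxia: 37.3 CPM in room air against 14.9 CPM in hyperoxia over the lineage (311 and 298 UMIs), a ratio of 0.401 (0.341 to 0.471). It was lower in each endothelial type, with 46.7 and 27.8 CPM in gCap-like cells, 16 and 4.47 CPM in aCap-like cells and 37.5 and 15.8 CPM in artery-like cells, and the intervals of these 3 ratios lay below 1. The log2 ratio in the lineage ranged from −1.41 to −1.22 over the other settings. It was also called lower in alveolar macrophage-like cells, as given above, and in nonclassical monocyte-like cells with 18 and 7.97 CPM, from 20 and 4 UMIs, with an interval of the ratio from 0.11 to 1.32. In lymphocytes, where Pdk1 was highest, it had 39.2 and 50.5 CPM, and in AT2-like cells 30.9 and 32.3 CPM. AT1-like cells were on the higher side with 9.89 and 21.6 CPM, from 7 and 22 UMIs, with an interval of the ratio from 0.903 to 6.06.

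The bifunctional enzymes Pfkfb3 and Pfkfb4 set the level of fructose 2,6-bisphosphate, which drives phosphofructokinase. Pfkfb3 had 23.5 CPM in room air against 33.8 CPM in hyperoxia over all cells and was highest in alveolar fibroblast-like cells, with 97.4 and 112 CPM. It was called higher in classical monocyte-like cells (13.6 and 28.8 CPM), AT1-like cells (31.1 and 58 CPM) and artery-like cells (21.6 and 32.9 CPM). Stromal cells as a lineage had 41.2 and 61.8 CPM, just within 1.5-fold, and no stromal type reached 1.5-fold. Pfkfb4 was called lower in 3 of 10 types, among them pericyte-like cells with 37.3 and 15.1 CPM, a ratio of 0.406 (0.239 to 0.676).

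Bnip3 and Bnip3l encode receptors that direct mitochondria to autophagy. Bnip3l had 214 and 197 CPM over all cells and was within 1.5-fold in each of the 17 types, with the lowest log2 ratios in gCap-like (−0.48), artery-like (−0.48), pericyte-like (−0.43) and aCap-like cells (−0.35). Bnip3 was highest in AT2-like cells, with 53.1 and 51.4 CPM. It was lower in aCap-like cells, with 18.7 and 10.5 CPM and a ratio of 0.559 (0.362 to 0.888), and had 11.5 and 22.6 CPM in artery-like cells, from 8 and 33 UMIs.

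Ankrd37 (chr8:45996902-46005707, minus strand) differed mainly in endothelium. This range is from the GENCODE annotation, while the window printed above precedes the start given by RefSeq and lies inside the range. In gCap-like cells it had 16.1 CPM in room air (76 UMIs) against 111 CPM in hyperoxia (756 UMIs), a ratio of 6.89 (5.44 to 8.84). In artery-like cells it had 31.7 and 76.7 CPM, a ratio of 2.42 (1.52 to 4.01). In aCap-like cells, the highest type in room air, it had 92.2 and 103 CPM, within 1.5-fold.

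In room air the level of Ankrd37 in gCap-like cells was thus far below that in aCap-like cells, and in hyperoxia the 2 types were close. The log2 ratio in gCap-like cells was 2.78 and ranged from 2.59 to 2.88 over 10 other settings. The summed level of 8 aCap markers in gCap-like cells was 447 and 763 CPM, and that of 8 artery markers 1750 and 2732 CPM, with 6 and 7 of 8 higher, and Dkk2 at 0 in room air. Their part was not tested. Exons of Ankrd37 overlap those of Ufsp2 and Lrp2bp on the other strand. In gCap-like cells Ufsp2 had 28.1 and 26.5 CPM and Lrp2bp 2 and 6 UMIs. Outside endothelium Ankrd37 passed in neutrophil-like, B cell-like and both monocyte-like types, with ratios over 1 in each (in 6 of all 7 types under 2 of the other scalings) and the widest in classical monocyte-like cells, with 8.02 and 14.4 CPM from 10 and 18 UMIs.

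Bhlhe40 (chr6:108660629-108666925, plus strand), a transcriptional repressor of the circadian and hypoxic responses, was the gene called in most types. Its ratio was over 1 in 13 of the 16 types where it passed under each scaling, and at least 1.5-fold higher in 10. In aCap-like cells it had 20 CPM in room air against 62.5 CPM in hyperoxia (30 and 532 UMIs), a ratio of 3.12 (2.16 to 4.67). In gCap-like cells it had 35.7 and 62.4 CPM, a ratio of 1.75 (1.46 to 2.1). Artery-like cells, where it was high in both libraries, had 141 and 149 CPM.

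The stroma followed the same direction for Bhlhe40. Alveolar fibroblast-like cells had 7.52 and 20.2 CPM, a ratio of 2.68 (1.75 to 4.31), myofibroblast-like cells 31.3 and 59.7 CPM, a ratio of 1.91 (1.58 to 2.31), and smooth muscle-like cells 26.5 and 49.7 CPM, a ratio of 1.87 (1.31 to 2.74). The largest ratio was in neutrophil-like cells, with 25.2 and 121 CPM (10 and 136 UMIs) and 4.81 (2.54 to 10.3), beside the endothelial markers given above and 8 epithelial markers at a summed 466 and 1265 CPM, with 6 of 8 higher and Epcam, Krt8, Krt18 and Foxj1 at 0 in room air. Alveolar macrophage-like (180 and 146 CPM), AT2-like (60.3 and 55.7 CPM) and CD8 T cell-like cells (80.8 and 54.9 CPM) were on the lower side, within 1.5-fold. Bhlhe40 also responds to stimuli other than oxygen. A list of 14 genes of the response to tissue dissociation was on the higher side in endothelial cells (median log2 ratio 0.25) and in stromal cells (0.55, with 6 of 14 called higher, beside 10.4% of all genes apart in that lineage), and its part in the values of Bhlhe40 was not tested.

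**Figure D4:**
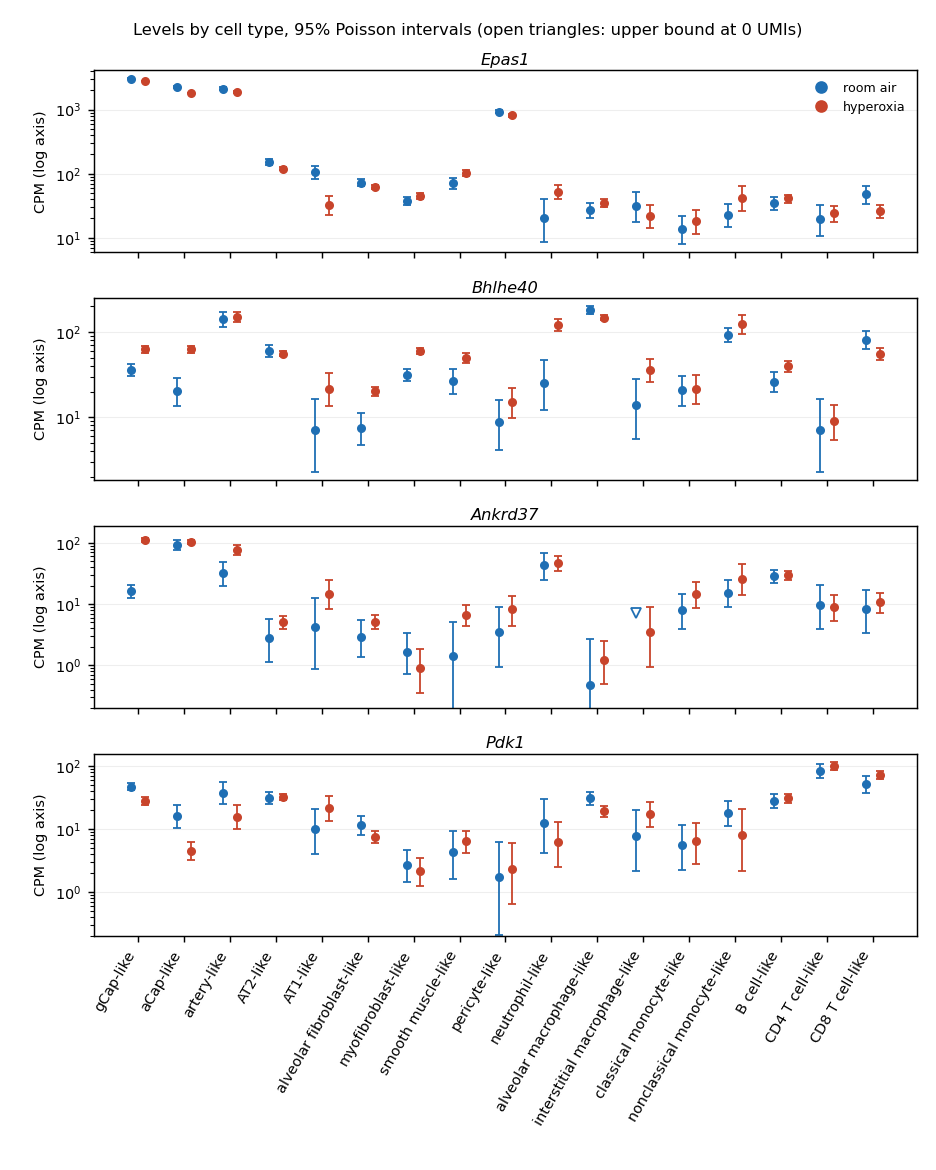
Levels of Epas1, Bhlhe40, Ankrd37 and Pdk1 in 17 cell types, in CPM on log axes, room air in blue and hyperoxia in red, with exact 95% Poisson intervals, cut at 0.2 CPM below; an open triangle is the upper bound where no UMI was counted. Epas1 pairs overlap or lie close in endothelium (3012 and 2796 CPM in gCap-like cells), the Ankrd37 points stand far apart in gCap-like cells (16.1 and 111 CPM) and near each other in aCap-like cells (92.2 and 103 CPM), and Pdk1 is lower in hyperoxia in the 3 endothelial types.

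The collagen prolyl hydroxylases P4ha1 and P4ha2, which stabilize the collagen helix, were on the higher side in most types. P4ha1 was over 1 in 13 of 16 types (13 or 14 under the other scalings) and was called in gCap-like cells, with 18 CPM in room air against 34.3 CPM in hyperoxia, a ratio of 1.91 (1.48 to 2.47), and in interstitial macrophage-like cells. P4ha2 was over 1 in 6 of the 6 types where it passed, under each scaling, and called in 4. It had 29.6 and 44.9 CPM in myofibroblast-like cells, a ratio of 1.52 (1.24 to 1.86), 25.1 and 38.2 CPM in smooth muscle-like cells and 10.4 and 22.1 CPM in pericyte-like cells. The log2 ratio in smooth muscle-like cells was 0.61 and ranged from 0.12 to 0.63 over the 8 other settings that gave a value. The call held in 5 of these 8, and that in myofibroblast-like cells in 8 of 10. The widest ratio was in artery-like cells, with 13 and 61 CPM (9 and 89 UMIs) and 4.7 (2.37 to 10.6).

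Adm, by contrast, was higher over the stromal lineage, but within its types it was within 1.5-fold or lower. The lineage had 57.2 CPM in room air against 93.8 CPM in hyperoxia, a ratio of 1.64 (1.5 to 1.79). Alveolar fibroblast-like cells, its main source, had 139 and 175 CPM, within 1.5-fold, and were a larger share of the cells in hyperoxia, as given above. Myofibroblast-like cells had 21.2 and 14.8 CPM, and smooth muscle-like cells were called lower with 52.3 and 18.6 CPM (73 UMIs in each), a ratio of 0.355 (0.253 to 0.499). The log2 ratio in smooth muscle-like cells was −1.49. It ranged from −1.52 to −0.02 over the 8 other settings that gave a value, the last with each library clustered on its own.

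Ndufa4l2 was a gene of pericyte-like cells, which had 1583 CPM in room air against 1377 CPM in hyperoxia, within 1.5-fold. In alveolar fibroblast-like cells it had 30.1 and 3.95 CPM (92 and 50 UMIs), a ratio of 0.131 (0.0912 to 0.187). In those cells 8 pericyte markers summed to 411 and 223 CPM, with 8 of 8 lower, and its part was not tested. The lower level over all cells thus stood beside a smaller share of pericyte-like cells and a small difference within them.

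Of the remaining targets, Mxi1, a MAX-binding antagonist of MYC, was under 1 in 13 of 17 types (13 or 14 under the other scalings), with 49.4 CPM in room air against 34.5 CPM in hyperoxia over all cells. It was called lower in aCap-like (34.1 and 22.6 CPM), classical monocyte-like (114 and 71.2 CPM) and interstitial macrophage-like cells (131 and 81.8 CPM), and higher in pericyte-like cells (13.9 and 27.4 CPM, a log2 ratio of 0.98 that ranged from 0.06 to 1.03 over the other settings). Ndrg1, a stress-induced cytoplasmic protein, was over 1 in 7 of the 8 types where it passed (6 or 7 under the other scalings), and had 34.6 and 122 CPM in artery-like cells, a ratio of 3.52 (2.29 to 5.64). Kdm3a, a histone demethylase, had 34.1 and 32.1 CPM over all cells and was called in 1 type, CD4 T cell-like cells, with 30.9 and 61.1 CPM.

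Other genes of the same pathways, listed apart from the 37, gave the following counts over all cells, beside the 8.32% of all genes that were apart. Of 36 other hypoxia-induced genes 29 passed, 4 were higher and 2 lower, with a median log2 ratio of 0.12. Among the higher genes were Lox, which crosslinks collagen and elastin (70.4 and 133 CPM), Plod2, a collagen lysyl hydroxylase (37.7 and 64.4 CPM), and Gbe1, the glycogen branching enzyme (16 and 26.2 CPM). Of 9 other HIF regulators 8 passed and none was apart, with Tceb2, a subunit of the Vhl ligase, at 469 and 365 CPM.

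Of 19 other isoforms of glycolytic genes 4 passed over all cells, and Eno3, the muscle enolase, was lower with 24.3 CPM in room air against 4.61 CPM in hyperoxia. Most of its UMIs were in myeloid cells, where it had 115 and 17.9 CPM, a ratio of 0.155 (0.133 to 0.181). Eno3 was the leading gene of the cluster of nonclassical monocyte-like cells, which were 6.44% of the cells kept in room air and 1.29% in hyperoxia, and the part of that share in its value was not tested. All 23 genes of mitochondrial pyruvate use and the citric acid cycle passed. None was apart, 19 had a ratio over 1, and their median log2 ratio was 0.17, beside 0.03 for the 16 glycolytic genes. In endothelial cells 21 of the 23 were over 1, with a median of 0.25, beside 10 of 13 and 0.20 for the glycolytic genes there. Of all genes, 48.8% were under 1 over all cells and 49.2% in endothelial cells, with a median of 0.01 in each. The mixture of endothelial types differed, as given above, and its part was not tested. These counts use the library totals as the scale.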

How the data were processed

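The authors mixed the lungs of 8 mice per group, digested them with enzymes, lysed red cells and made 1 library per group on the 10x Genomics 3′ platform. The deposited files hold raw UMI counts per gene and cell barcode, with no normalization, aligned to mm10 with Cell Ranger (version 2.1.1 per the labels' processing notes, 6.1.1 in their protocol and 3.1.0 in the matrix header, which was not settled; the labels and the study's methods also name different versions of the kit). No annotation of cells was used here. The strand setting of the counting is not given in the sources used here. Exons of Ankrd37, Bhlhe40, Gapdh, Aldoa, Gpi1, Tpi1, Hk1, Pfkp, Slc2a1, Mxi1, Ndrg1, Bnip3, Egln2, Ndufa4l2 and Hif1a overlap genes on the other strand, and those of Hif1a and Pkm overlap Gm49321 and Gm49759 on the same strand.

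Cells needed 500 genes or more and no more than 20% of UMIs from mitochondrial genes. Doublets were taken out by a score against simulated doublets, 0.8% per 1000 barcodes (129 in room air and 1238 in hyperoxia). Both libraries were clustered together on 2000 variable genes, 30 components and 20 neighbours at resolution 1 (Python 3.11.15, scikit-learn 1.9.0, leidenalg 0.10.2), first into lineages and then into types. A cluster was named from at least 3 raised markers of lists of 8. This naming rule was changed after the clusters were seen and before the values of the genes reported were looked at. All 31 lineage clusters were named, and 10 of 15 endothelial, 8 of 10 epithelial, 15 of 19 stromal, 11 of 12 myeloid and 15 of 16 lymphocyte type clusters. Types with at least 50 cells in each library were described.

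UMIs were summed per library and type. With 1 library per group no test and no p-value was computed. Intervals were computed with scipy 1.17.1. A gene was read where its mean was at least 10 CPM and called at 1.5-fold. Any of the 37 genes could be named, and of each other list at most 4 genes with the largest log2 ratio over all cells. One gene of these lists is counted but not reported here. The genes and lists were chosen with earlier results of these data known. The steps were checked on simulated data. Alternatives changed the filters, doublet removal, resolution, joint clustering, scaling (TMM of edgeR 4.0.16, totals without mitochondrial, ribosomal protein and haemoglobin genes, mean of single cells), minimum CPM and fold.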

Additional observations from a re-analysis of the deposited data

Results flagged for a closer look

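Of the 37 genes, 8 were called higher in 1 or more cell types and lower in others. The share of all genes called both ways was not counted, so the count of 8 is not read as a trait of these genes. In single types between 10.5% and 33.4% of all genes were apart. For the 5 given here the interval of the ratio also lay above 1 in a type where the gene was higher and below 1 in a type where it was lower; for Pdk1, Bnip3 and Hk1 it did not. The differences between the types were not tested. Aldoa had a log2 ratio of −0.72 in CD8 T cell-like and 0.95 in artery-like cells. Epas1 had −1.71 in AT1-like and 1.38 in neutrophil-like cells. Mxi1 had −0.69 in interstitial macrophage-like and 0.98 in pericyte-like cells. Pfkfb3 had −1.10 in alveolar macrophage-like and 1.08 in classical monocyte-like cells. Pfkp had −0.65 in alveolar macrophage-like and 0.75 in pericyte-like cells.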

How the results depend on the processing

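Of 119 values called for single genes, 109 never reversed and 65 stayed past 1.5-fold in every setting that gave a value. Values in artery-, smooth muscle- and AT1-like cells were obtained in 8 of 10 settings, and those in CD4 T cell-like cells in 9. The values that reversed were log2 ratios. In interstitial macrophage-like cells these were Pfkp (−0.15 at 1000 genes and 10% mitochondrial UMIs, −0.23 without doublet removal, −0.12 at resolution 2), Hk1 (−0.75) and Eno1 (−0.14) without doublet removal, Bhlhe40 (−0.15) with double the doublets removed, Egln1 (−0.065) and Pgk1 (0.087) with each library clustered on its own, and Pgk1 (0.081) and Pdk1 (−0.24) as a mean of single cells. The others were Epas1 in AT1-like cells without doublet removal (1.41), Epas1 in epithelial cells as a mean of single cells (0.12), and Ndrg1 in CD4 T cell-like cells at resolution 0.5 (−0.57) and as a mean of single cells (−0.26).

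The number of the 37 genes at least 1.5-fold apart in lymphocytes, 0 as reported, was 1 at 1000 genes and 10% mitochondrial UMIs, without doublet removal, with double the doublets removed, with totals without mitochondrial, ribosomal protein and haemoglobin genes and with TMM factors, 2 at either other resolution and at a minimum of 1 CPM, and 4 with each library clustered on its own. In epithelial cells, 3 as reported, it was 1 without doublet removal, at resolution 0.5 and at a minimum of 50 CPM, and 7 at a minimum of 1 CPM. In myeloid cells, 4 as reported, it was 8 with double the doublets removed and 2 at a minimum of 50 CPM. In endothelial cells, 5 as reported, and stromal cells, 4 as reported, it was 2 at a minimum of 50 CPM and 9 at a minimum of 1 CPM. At 2-fold it was 3 in endothelial, 0 in epithelial, 0 in stromal and 1 in myeloid cells. The minimum and the fold change which genes can count. The cause of the other differences was not tested.

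The median log2 ratio of the 37 genes over all cells lay between 0.04 and 0.11 in all settings. That of the 16 glycolytic genes lay between 0.07 and 0.30 in endothelial and 0.03 and 0.21 in epithelial cells, and on both sides of 0 in stromal (−0.02 to 0.07), myeloid (−0.10 to 0.04) and lymphocyte cells (−0.10 to 0.02). Leaving out barcodes present in both libraries, a setting chosen after seeing the data, left all 119 called values in the same direction. No paired analysis was possible because each group is 1 library. One library of pooled mice per group leaves the spread between mice unknown, and low UMI counts limit the small types.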

Other observations

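Of 14 genes of the response to tissue dissociation, 1 was at least 1.5-fold apart over all cells, Fosb, a subunit of the AP-1 transcription factor, with 211 CPM in room air against 317 CPM in hyperoxia, and the median log2 ratio of the list was 0.20. Of 10 genes of dividing cells 8 passed the minimum over all cells and 8 were lower, with a median log2 ratio of −1.44. The 4 genes of red blood cell RNA that passed over all cells had a median log2 ratio of 0.06. By lineage, 3 of 3 were higher in epithelial cells (median 3.70) and 4 of 4 in lymphocytes (3.69), and the median was −0.41 in endothelial cells. Their part in the values of the 37 genes was not tested.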
